A study of Bos taurus with 12 samples.

Results

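Haptoglobin (HP, ENSBTAG00000006354) was followed across the livers of 12 Holstein dairy calves. The set was defined by 3 identifiers, HP and the serum amyloid A genes SAA3 (ENSBTAG00000022396) and M-SAA3.2 (ENSBTAG00000010433). Of these, 1 of 3 was a row of the count tables used here, among 27570 genes listed, and the other 2 are not analysed here. All values below are therefore for HP, and the relation between HP and the serum amyloid A genes is not described. The tables carry Ensembl identifiers without symbols, and the name HP is the one given for this identifier when the set was defined.

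Haptoglobin is a plasma glycoprotein made mainly by hepatocytes. It binds haemoglobin released from broken red cells, and the complex is taken up by macrophages through the receptor CD163. In cattle it is a major acute phase protein, low in the blood of healthy animals and strongly raised during infection and tissue injury, when inflammatory cytokines act on hepatocytes. Serum amyloid A proteins travel with high-density lipoprotein and belong to the same acute phase response.

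The study asked whether the liver transcriptome of pre-weaned calves differs between heat stress and cooling. Calves in both groups were group-housed and stayed on their treatment from birth to weaning, 6 under postnatal heat stress and 6 with postnatal cooling. Liver was taken by biopsy at 42 days of age and total RNA was sequenced, with 22910846 to 32240168 reads counted on genes per library. A biopsy is bulk tissue, so fewer cells of a type and less RNA per cell cannot be told apart. The labelled tissue could not be checked against liver markers, because no identifier could be paired with a symbol. Cooled calves 2 and 3 had unusually similar libraries. In a chi-square test per gene of their counts, 26.5% of genes differed at p under 0.05, where the other 65 pairs of calves had 50.9% to 81.4%. Across genes, Pearson r between their log2 levels was 0.990, and 0.940 to 0.977 in the other pairs. They differed by more than counting error, but separate libraries of a single animal can do so too. The test therefore cannot tell whether they are separate calves. Both were kept as separate calves, following the series description. Where computed, results that rest on them are also given without them. Nothing beyond the series description says that each library is a separate calf, so p-values are set against the spread between these libraries. If cooled calves 2 and 3 came from a single animal, tests that keep both would count it as separate calves.

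HP differed widely between calves within each group, and the groups overlapped. Levels are in CPM, the gene's reads relative to the library's total after that total was scaled by a TMM factor. In the cooled calves HP stood at 99.9 CPM in calf 1, 10867 CPM in calf 2, 10878 CPM in calf 3, 2189 CPM in calf 4, 238.3 CPM in calf 5 and 2339 CPM in calf 6. In the heat-stressed calves it stood at 1387 CPM in calf 1, 351.2 CPM in calf 2, 3691 CPM in calf 3, 4481 CPM in calf 4, 19961 CPM in calf 5 and 2595 CPM in calf 6. The lowest calves of the study were cooled calves 1 and 5 and heat-stressed calf 2, and the highest were heat-stressed calf 5 and cooled calves 2 and 3. Of the heat-stressed calves, 5 of 6 lay within the range of the cooled calves, and 1, calf 5, lay above it.

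**Figure D1:**
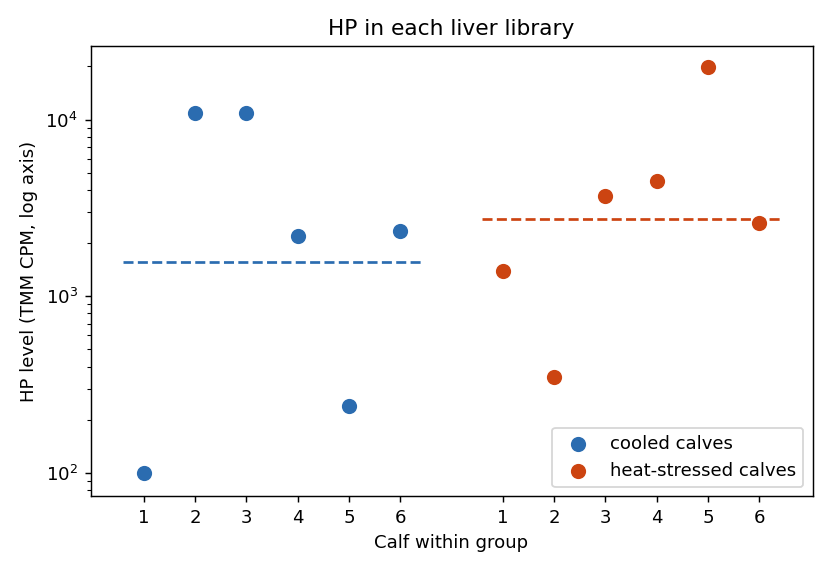
HP level in each of the 12 liver libraries, in TMM-scaled CPM on a log axis, for cooled (blue) and heat-stressed (orange) calves. Dashed lines are the geometric means of the groups, 1560 CPM and 2734 CPM, and the exact 95% Poisson intervals of the counts are smaller than the points. The highest calf, heat-stressed calf 5, stands at 19961 CPM and the lowest, cooled calf 1, at 99.9 CPM, and calves of both groups lie between them.

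Counting error was small beside these differences. The fewest HP reads were 2958, in cooled calf 1, for an exact 95% Poisson interval of 96.3 to 103.6 CPM. The most were 528143, in heat-stressed calf 5, with an interval of 19907 to 20015 CPM. These intervals cover counting error only. The highest calf stood 199.8-fold above the lowest over the whole study, 108.9-fold within the cooled and 56.8-fold within the heat-stressed group.

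HP took from 0.0105% of all reads in cooled calf 1 to 1.88% in heat-stressed calf 5. Ordered by number of reads, with no allowance for gene length, it was the gene ranked 1331 in the first of these libraries and 6 in the second. In cooled calves 2 and 3 it ranked 9 in each, with 1.01% of reads in both. Over all calves HP ranked 14 by mean CPM.

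Among abundant genes HP was one of the most variable. The standard deviation of its log2 CPM over the 12 calves was 2.33, where the median over the 14924 genes with enough reads to test was 0.37, and HP ranked 19 among them. Of 1354 genes with a mean of at least 100 CPM, HP ranked 4, against a median standard deviation of 0.35. These ranks describe the libraries and carry no test.

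**Figure D2:**
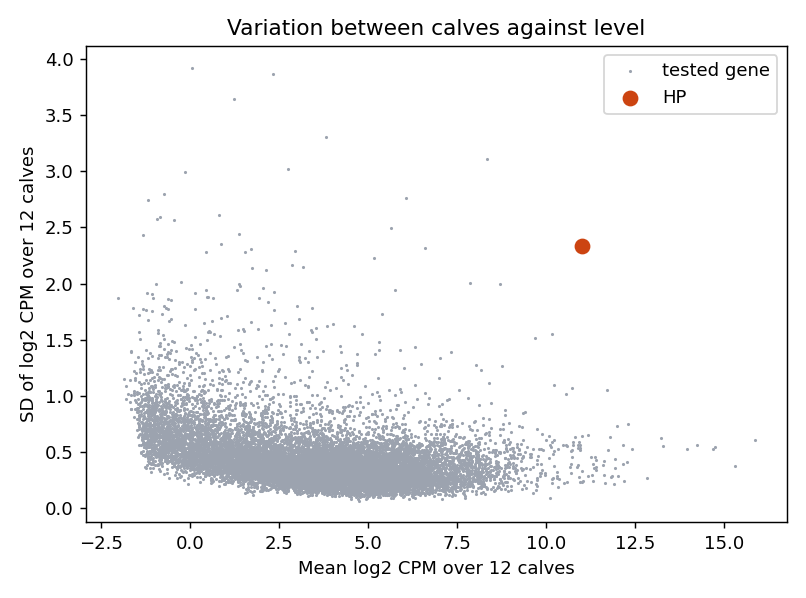
Standard deviation of log2 CPM over 12 calves against mean log2 CPM for each of the 14924 tested genes (grey) and for HP (orange). HP stands at a standard deviation of 2.33, far above the bulk of genes at its level.

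The main comparison asked whether HP differed between heat-stressed and cooled calves, and no difference beyond the spread between calves was detected. Cooled calves had a mean of 4435 CPM ± 5074 (SD, n = 6). The mean of the heat-stressed calves was 5411 CPM ± 7284 (SD, n = 6). edgeR's quasi-likelihood test, fitted on all tested genes, gave a log2 fold change of 0.29, heat-stressed over cooled (SE 0.98, from its F statistic). The edgeR adjusted p (Benjamini-Hochberg) was 0.912 and the unadjusted edgeR p was 0.774. The 95% interval of the fold ran from 0.286 to 5.20, so neither a severalfold fall nor a severalfold rise is outside it. At an edgeR adjusted p under 0.05 the share of tested genes called in this comparison was 0%, and limma-voom also called 0 genes, where DESeq2 called 7 higher and 7 lower, without HP. At an unadjusted edgeR p under 0.05 the share was 9.37%, or 1399 genes, and HP was not among them. The other tools on all 12 calves gave adjusted p from 0.755 for limma-voom to 0.937 for DESeq2.

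The precision for HP was far lower than for other genes. Its SE of 0.98 on the log2 scale compares with a median of 0.20 over tested genes, and 99.9% of tested genes had a smaller SE. Every library held at least 2958 reads of HP, so counting error was a small part of that SE.

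On the log2 scale the group means were 10.61 ± 2.80 (SD, n = 6) in cooled and 11.42 ± 1.93 (SD, n = 6) in heat-stressed calves. The difference of 0.81 was within the spread (p = 0.574, two-sided exact permutation test, with 924 ways to assign the labels and a smallest possible p of 0.00216). Of the variation of HP between calves on this scale, 3.28% lay between the group means, with cooled calves 2 and 3 both kept. The share without them was not computed, so 3.28% holds only with the pair included. Without both, the difference in log2 means was 2.21 (p = 0.138, two-sided exact permutation test). In plain CPM the means differed by 975.8 (p = 0.790, two-sided exact permutation test). The log2 means weigh the low cooled calves more, and the CPM means weigh the few highest calves more, so the sizes differ.

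The sign of the edgeR fold change turned when heat-stressed calf 5 was left out, and its size moved with other calves and with the alike pair. Without heat-stressed calf 5, the highest of the study, edgeR gave a log2 fold change of -0.83 (edgeR adjusted p = 0.641). Without cooled calf 1 or cooled calf 5, the lowest of the study, it was 0.03 and 0.04. With cooled calves 2 and 3 summed into a single library it was 0.78 (edgeR adjusted p = 0.807). With both left out it was 2.16, a 4.47-fold higher level in heat-stressed calves with a 95% interval from 0.939 to 21.3. That difference had an edgeR adjusted p of 0.831, and its unadjusted p in the edgeR fit was 0.0586. Without both, the log2 means differed by 2.21 (p = 0.138, two-sided exact permutation test). Without heat-stressed calf 5 the log2 means differed by 0.23 (p = 0.874, two-sided exact permutation test), so their sign did not turn. In limma-voom with quality weights, which lets libraries count unequally, the log2 fold change was -0.58 (adjusted p = 0.767). The 95% interval included a log2 fold change of 0 in the main edgeR analysis and in all 24 alternatives.

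**Figure D3:**
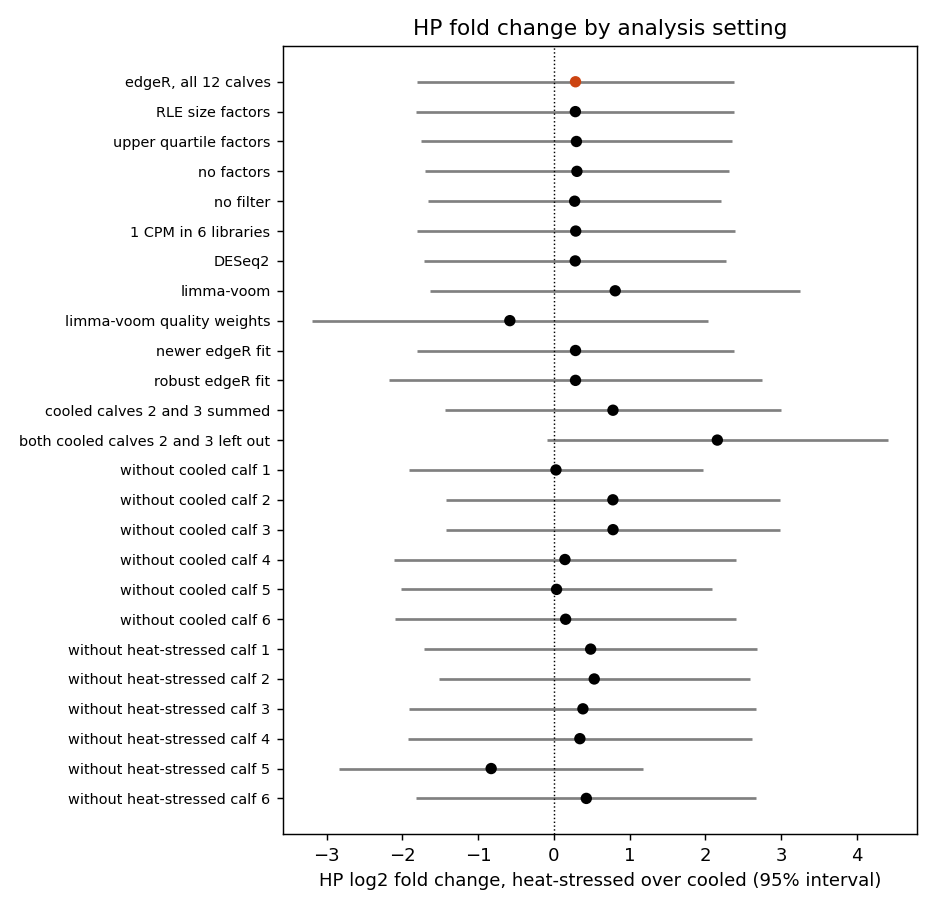
Log2 fold change of HP, heat-stressed over cooled, with its 95% interval, in the edgeR analysis of all 12 calves (orange) and under each alternative (black). The points run from -0.83 without heat-stressed calf 5 to 2.16 without cooled calves 2 and 3, and every interval crosses 0.

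The groups' spread of HP was compared as well. The mean absolute deviation of log2 CPM from the group's own median was 2.06 in cooled and 1.34 in heat-stressed calves. The difference of -0.72 (heat-stressed minus cooled) was not beyond what reassigned labels gave (p = 0.424, two-sided exact permutation test). It stayed negative in all 17 alternatives, with p from 0.219 to 0.790, and without both cooled calves 2 and 3 it was -0.59 (p = 0.395, two-sided exact permutation test).

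HP stood at nearly the same level in cooled calves 2 and 3, with 293586 and 300554 reads. The exact 95% Poisson intervals, 10828 to 10907 CPM and 10839 to 10917 CPM, overlapped. Their log2 CPM differed by 0.0014, the smallest gap among the 66 pairs of calves. The next smallest was 0.096, between cooled calves 4 and 6. If the pair came from a single animal, the high end of the cooled group would rest on that animal.

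Measures of the libraries were set beside HP, with 3 relations computed over 12 calves. The TMM factor was lower in calves with more HP (Pearson r = -0.64, permutation p = 0.0253, Benjamini-Hochberg adjusted 0.0760; Spearman rho = -0.71, permutation p = 0.0121, adjusted 0.0362). Without the 2 calves farthest from the median factor r was -0.67 (permutation p = 0.0349). Within groups it was -0.91 in cooled (exact permutation p = 0.0264, n = 6) and -0.64 in heat-stressed calves (exact permutation p = 0.172, n = 6). Without both cooled calves 2 and 3 it was -0.54 (permutation p = 0.105). The factors ran from 0.867 to 1.09, a log2 range of 0.33, where HP had a log2 range of 7.64. HP CPM is computed with this factor, so the relation is in part built in, and its part in the differences between calves was not tested.

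Over all 12 calves the other library measures had an r with HP that was smaller in size than that of the TMM factor, a difference that was not tested. For the total count r was 0.38 (permutation p = 0.220, adjusted 0.329) and rho 0.41 (permutation p = 0.186, adjusted 0.278), with r = 0.52 without the 2 farthest calves (permutation p = 0.123). It was 0.58 in cooled (exact permutation p = 0.238, n = 6) and 0.42 in heat-stressed calves (exact permutation p = 0.399, n = 6), and without both cooled calves 2 and 3 it was 0.31 over the other calves (permutation p = 0.384). For the number of genes with a count r was -0.23 (permutation p = 0.475, adjusted 0.475) and rho -0.26 (permutation p = 0.418, adjusted 0.418), with r = -0.0087 without the 2 farthest calves (permutation p = 0.982). It was -0.0017 in cooled (exact permutation p = 0.997, n = 6) and -0.74 in heat-stressed calves (exact permutation p = 0.0847, n = 6), where it was larger in size than that of the TMM factor. Without both cooled calves 2 and 3 it was -0.043 (permutation p = 0.904). With 1 calf left out at a time it ran from -0.47, without cooled calf 5, to -0.080, without heat-stressed calf 2.

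The genes whose pattern was most like HP were found by Pearson r of log2 CPM over the 12 calves. They were picked for that r among 14923 genes, so no p is given, and calves of a pair with similar libraries count in it as separate points. No identifier was paired with a symbol, so they are given by identifier. The 5 most alike genes had r from 0.907 to 0.971, and the first 2 are described here.

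ENSBTAG00000010328 had r = 0.97 and Spearman rho = 0.93 with HP. Its level was low and moved little, from 3.17 CPM (94 reads) in cooled calf 1 to 7.79 CPM (206 reads) in heat-stressed calf 5, a 2.45-fold range. These are the calves with the least and the most HP. The level was 6.48 CPM and 6.44 CPM in cooled calves 2 and 3, the next highest after heat-stressed calf 5. Within groups r was 0.99 in cooled and 0.96 in heat-stressed calves, and without both cooled calves 2 and 3 it was 0.97. With unscaled library totals r over all calves was 0.93.

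ENSBTAG00000022395 had r = 0.97 and rho = 0.89 and varied much more, 36.9-fold between the lowest and highest calf. In the cooled calves it stood at 97.9, 2410, 2278, 969.9, 266.6 and 862.1 CPM in calves 1 to 6. In the heat-stressed calves it stood at 790.4, 280.4, 1909, 834.3, 3618 and 597.7 CPM in calves 1 to 6. The order of the extremes was that of HP, with cooled calf 1 lowest, cooled calf 5 next and heat-stressed calf 5 highest. Its log2 level rose by 0.63 for each log2 unit of HP across calves. Within groups r was 0.99 in cooled and 0.91 in heat-stressed calves, and without both cooled calves 2 and 3 it was 0.96. Between the groups its log2 fold change was 0.22 (SE 0.68, edgeR adjusted p = 0.902).

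**Figure D4:**
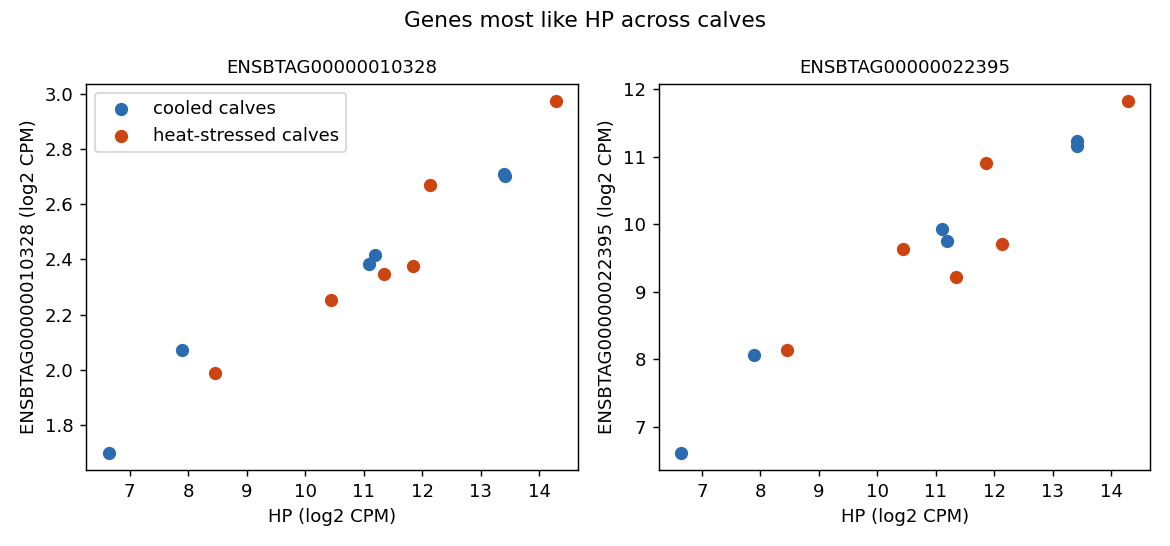
Log2 CPM of the 2 genes most like HP against log2 CPM of HP, 1 point per calf, cooled in blue and heat-stressed in orange. Points of both groups lie along the same band, from cooled calf 1 at the lower left to heat-stressed calf 5 at the upper right.

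In all, 65 of the 14923 other genes, these included, had r above 0.8 with HP and 30 had r below -0.8. Without both cooled calves 2 and 3 these counts were 51 and 27 of 15215 genes. With unscaled library totals they were 35 and 54, so the balance between positive and negative relations depended on the scaling. The counts are descriptions, since calves share their library scaling across all genes.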

How the data were processed

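Liver RNA of 12 calves was sequenced and 1 table of gene counts per calf was used. The authors deposited whole-number read counts, not normalized, per the file headers. The submitters' processing notes name HTSeq, HISAT2, Trim Galore 0.4.4, FastQC 0.11.7 and the build ARS-UCD1.2. For HISAT2 and HTSeq the version, and for the counting the annotation and strand setting, were not given in the sources used here. Reads of genes that overlap HP on the other strand could therefore not be told apart from it.

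Groups came from the treatment label, and calves were numbered in listing order and not paired. The tests between groups used edgeR 4.0.16 in R 4.3.3 (filterByExpr, TMM factors, glmQLFit, glmQLFTest, two-sided, Benjamini-Hochberg over 14924 genes), with DESeq2 1.42.0 and limma 3.58.1 as alternatives. For edgeR, the SE was the size of the log2 fold change divided by the square root of the test's F statistic. The 95% interval was built from that SE and a t quantile. Log2 CPM used a prior count of 2. Pairs of libraries were compared over genes with at least 50 reads in the pair. Permutation tests, with 100000 resamples for correlations over 10 or more calves and exact otherwise, used Python 3.11.15, numpy 2.4.6 and scipy 1.17.1. The scripts were tested on simulated data.

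The genes, the 14 gene lists (200 symbols) and the rule for likeness were chosen with earlier results of these data known. That rule took the 5 tested genes with the highest r, with at most 2 identifiers printed. Of the 27570 identifiers, 0 matched the RefSeq gene table (ARS-UCD2.0), so the lists were not used and no coordinates or sequences are given. Analyses planned for the serum amyloid A genes were not run.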

Additional observations from a re-analysis of the deposited data

Results flagged for a closer look

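In plain CPM, heat-stressed calf 5 stood far from the rest of its group, at 19961 CPM of HP where the next calf had 4481 CPM. The gap was 0.789 of the group's range, above Dixon's critical value of 0.625 for 6 samples. On the log2 scale the same gap was 0.370 of the range and did not exceed it. Of 8 sets of 6 calves examined, 1 exceeded the value, and chance alone would flag a set at times.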

How the results depend on the processing

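The HP log2 fold change of 0.29 kept its sign in 22 of 24 alternatives and passed the threshold in none, with adjusted p from 0.641 to 0.991. It was -0.58 with limma-voom quality weights, 2.16 with both cooled calves 2 and 3 left out, and -0.83 (without heat-stressed calf 5) to 0.78 when 1 calf was left out at a time. The difference in mean log2 CPM kept its sign in 17 of 17, from 0.02 to 2.21 with exact permutation p from 0.138 to 0.991. Over all genes, DESeq2 called 7 higher and 7 lower, and leaving out 1 calf gave 0 to 1 higher and 0 lower. At unadjusted p under 0.05 the number of genes ran from 841, when heat-stressed calf 6 was left out, up to 2578, when heat-stressed calf 3 was, 4126 with limma-voom quality weights and 889 with both cooled calves 2 and 3 left out, and the cause was not tested. The relation of HP with the TMM factor kept its sign in 15 of 15 but had p over 0.05 in 5. Leaving out both cooled calves 2 and 3, the relations with library measures, the alternatives for these and for the likeness, and the difference in plain CPM were chosen after seeing the data. No paired analysis was run, because each calf stayed on its treatment and the labels pair no calves across the groups. Depth does not limit HP, whose lowest library held 2958 reads.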
